A study of Mus musculus with 12 samples.

Results

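The 10 genes that mark white or brown adipocytes and were followed in RNA from 12 mouse hearts are Plin1, Plin4, Cidec, Cidea, Adipoq, Cfd, Retn, Lep, Ucp1 and Car3. They were chosen by gene symbol and are 10 of the 25171 loci in the deposited count table. The hearts fell into 4 groups of 3 mice. All mice carried a loxP-stop-loxP cassette ahead of NOTCH2NLC-(GGC)98 at the Rosa26 site. In EIIa-tg mice, which the labels write as E2a-tg, the stop is removed by a Cre that acts in all tissues, and their littermates without this Cre were the EIIa-ctl mice. Both groups were taken at postnatal day 30, and the genotype labels of EIIa-tg replicates 2 and 3 differ from that of replicate 1, so that these hearts were grouped by title. By the paper's account, Myh6-tg mice carried Myh6-creERT2, a Cre made in cardiomyocytes and switched on by tamoxifen. They were injected 3 times from day 60 at 75 mg/kg. Myh6-ctl mice bear the same genotype label and received corn oil, and both groups were taken at day 90. The hearts were compared for the markers of the fat that lies around the heart.

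Adipocytes store triglyceride in one or many lipid droplets, whose surface carries perilipins and proteins of the CIDE family. White adipocytes release adiponectin, adipsin, leptin and, in the mouse, resistin. Brown adipocytes hold many small droplets and burn fat for heat through the uncoupling protein UCP1. Heart muscle has perilipins and lipid droplets of its own, and fat depots lie on the outside of the heart and around the great vessels. In RNA of a whole heart, fewer cells of a type and less RNA per cell cannot be told apart.

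Totals ranged from 38343106 to 50969834 counts per heart. Levels below are CPM, counts relative to the total of a heart after TMM scaling over the 12 hearts, unless given as counts or as FPKM, which also corrects for transcript length. The 13 mt- genes took between 28.5% and 38.3% of the counts in the first 9 hearts but 15.5% to 18.6% in the Myh6-tg hearts. Scaling to the total count instead of TMM would raise the median over all genes, on the log2 scale, by 0.19 in the EIIa and by 0.39 in the Myh6 comparison. Esr1 had 53433 to 103037 counts in Myh6-ctl hearts and 53 to 116 counts in hearts labelled Myh6-tg. It had 15 to 54 counts in the EIIa hearts, from mice not bred to Myh6-creERT2. The labels give both Myh6 groups the same genotype, so tamoxifen and whatever else the difference between them marks cannot be told apart. Whether the hearts labelled Myh6-tg carried or made this Cre was not tested. Y-linked counts were found in replicate 1 of every group (4224 to 7307) and were at most 2 elsewhere. One protocol label names brain as the source of the RNA, but all 9 cardiomyocyte markers were present in every heart, with a summed level of 9886 to 53147 CPM. The table holds more entries of 0 than counting error alone would give, since 26.3% of entries were 0 in the 732 genes with a mean above 6 and up to 10 counts, against 0.067% from counting at those means. Even entries were also more common than odd ones (20772 against 15152 for entries from 1 to 20). A member without counts is therefore described as listed at 0, and the 3 counts (0.0568 to 0.0815 CPM) that a count of 0 allows cover counting error only.

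Among the droplet proteins, Plin1 and Cidec are the markers closest to the white adipocyte. Their promoters are shown because both hold the core TTGCNNAA recognised by C/EBP factors, which drive adipocyte differentiation, while the windows of Adipoq and Plin4 do not. Each window covers 250 bases before and 50 after a RefSeq start on GRCm38.p6, was read 5′ to 3′ on the strand of the gene, and was searched on both strands, with matches in capitals. The Plin1 window is chr7:79732727-79733026 and that of Cidec is chr6:113434715-113435014, both on the minus strand. The Adipoq window is chr16:23146286-23146585 on the plus strand and the Plin4 window is chr17:56109733-56110032 on the minus strand.
Plin1: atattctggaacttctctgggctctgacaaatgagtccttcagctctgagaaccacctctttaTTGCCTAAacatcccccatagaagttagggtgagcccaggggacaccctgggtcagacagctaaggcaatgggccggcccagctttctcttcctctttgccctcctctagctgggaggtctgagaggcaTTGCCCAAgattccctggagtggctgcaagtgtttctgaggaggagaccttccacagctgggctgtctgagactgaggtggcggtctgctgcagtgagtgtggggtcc
Cidec: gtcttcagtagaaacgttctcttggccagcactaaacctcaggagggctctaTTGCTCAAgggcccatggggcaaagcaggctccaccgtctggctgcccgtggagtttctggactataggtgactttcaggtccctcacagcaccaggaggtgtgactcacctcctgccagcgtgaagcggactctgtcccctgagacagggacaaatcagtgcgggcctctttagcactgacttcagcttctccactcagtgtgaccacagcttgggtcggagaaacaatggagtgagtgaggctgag
Adipoq: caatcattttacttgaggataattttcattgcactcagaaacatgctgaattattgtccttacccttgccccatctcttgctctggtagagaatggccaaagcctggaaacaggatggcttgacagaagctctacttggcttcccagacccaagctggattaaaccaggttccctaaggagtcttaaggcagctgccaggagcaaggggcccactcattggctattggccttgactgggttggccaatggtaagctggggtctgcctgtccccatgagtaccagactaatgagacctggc
Plin4: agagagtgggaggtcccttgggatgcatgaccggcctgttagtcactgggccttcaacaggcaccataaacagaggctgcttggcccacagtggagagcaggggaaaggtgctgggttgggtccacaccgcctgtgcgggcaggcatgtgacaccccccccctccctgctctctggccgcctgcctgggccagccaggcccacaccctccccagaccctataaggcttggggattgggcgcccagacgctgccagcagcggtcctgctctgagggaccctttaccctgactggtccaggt
The matches of Plin1 begin at -187 and -58 and that of Cidec begins at -198 from the start. A second RefSeq window of Cidec holds no match. Of the 9 windows found for 8 members, 3 hold this core, the other being that of Lep, against 10.8% of all 32851 windows. The nuclear receptor half-site AGGTCA was found in the Ucp1 window only, beginning at -14, and in 16.3% of all windows. TATAAA was in none of the 9, and in 13.6% of all. Car3 and Cidea had no window in the table. A match describes the letters alone, and no binding was measured.

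Plin1, the perilipin that guards the droplet of white adipocytes (GRCm38 chr7:79720218-79732903), had 6, 0 and 5 counts in EIIa-ctl hearts, 8, 39 and 29 in EIIa-tg, 10, 5 and 69 in Myh6-ctl hearts, and 0, 10 and 50 in Myh6-tg. The highest value was in Myh6-ctl replicate 3 and the next in Myh6-tg replicate 3. The group means were 0.0908 ± 0.0787 CPM in EIIa-ctl hearts, 0.539 ± 0.303 in EIIa-tg, 0.555 ± 0.655 in Myh6-ctl hearts, and 0.388 ± 0.496 in Myh6-tg (SD, n = 3 each here and below).
Cidec, which fuses small droplets into large ones (chr6:113424634-113435760), had 0, 15 and 0 counts in EIIa-ctl hearts, 6, 46 and 39 in EIIa-tg, 8, 19 and 88 in Myh6-ctl hearts, and 0, 26 and 73 in Myh6-tg. The same 2 hearts again stood highest, and the groups of each model overlapped.

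Plin4, a perilipin of adipocytes that muscle also makes (chr17:56100591-56109803), was of another order of magnitude. Its levels were 116, 90.5 and 93.0 CPM in EIIa-ctl hearts, 224, 123 and 169 in EIIa-tg, 95.05, 126 and 156 in Myh6-ctl hearts, and 178, 145 and 127 in Myh6-tg. All 3 EIIa-tg hearts lay above all 3 EIIa-ctl hearts, whereas the Myh6 groups overlapped.
Cidea, the CIDE protein of brown adipocytes, had 19.1, 17.5 and 18.9 CPM in EIIa-ctl hearts, 35.1, 18.0 and 27.6 in EIIa-tg, 18.4, 24.7 and 12.2 in Myh6-ctl hearts, and 37.5, 21.9 and 15.7 in Myh6-tg. In both models replicate 1 of the transgenic group was the highest heart, and the groups overlapped. Per length, Cidea and Plin4 were of similar level in EIIa-ctl hearts (14.0 ± 0.202 and 15.2 ± 1.62 FPKM), where Plin1 had 0.0234 ± 0.0203 and Cidec 0.0666 ± 0.115 FPKM. Gene models of Plin4 and Hdgfl2, which lie on opposite strands, share 17 exon bases, and whether counting used the strand is not given in the sources used here.

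**Figure D1:**
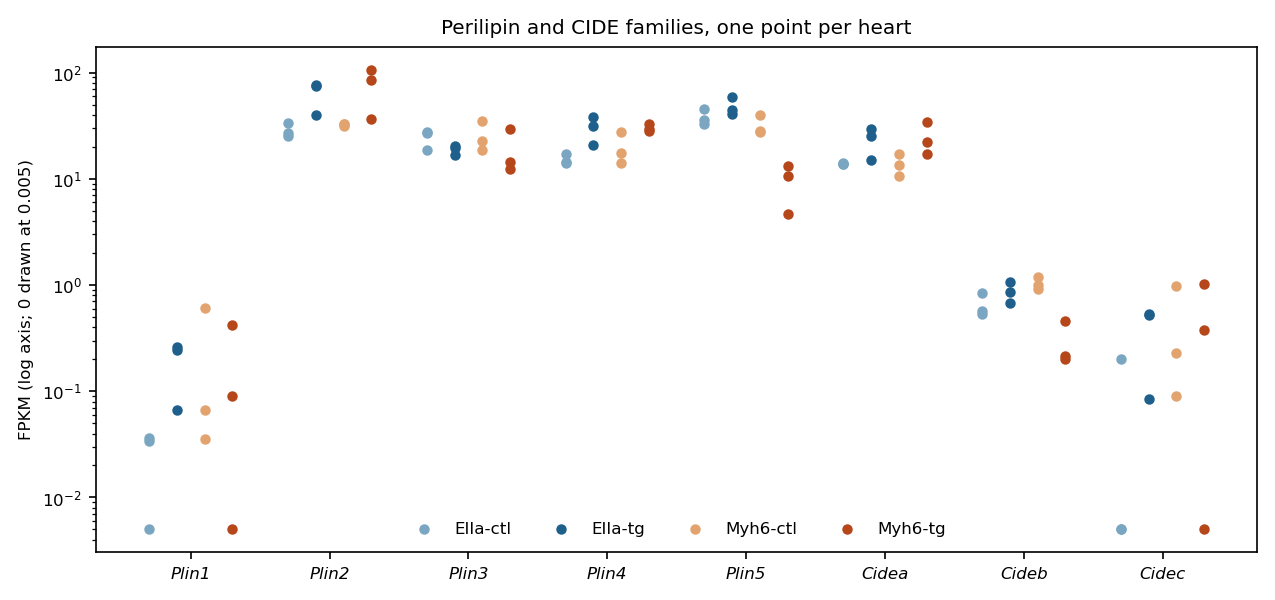
FPKM (log axis, entries of 0 drawn at 0.005) of the 5 perilipin and 3 CIDE genes, with 1 point per heart and groups in colour. Plin1 and Cidec stay near or below 1 FPKM in every heart, Plin4 and Cidea lie between 10.7 and 38.1 FPKM, and Plin5 is at 4.64 to 13.2 FPKM in Myh6-tg against 27.6 to 39.8 FPKM in Myh6-ctl.

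Of the secreted proteins, Adipoq (adiponectin, chr16:23146536-23158028) had 4, 0 and 11 counts in EIIa-ctl hearts, 15, 38 and 26 in EIIa-tg, 25, 10 and 59 in Myh6-ctl hearts, and 0, 4 and 23 in Myh6-tg. All EIIa-tg hearts were above all EIIa-ctl hearts, at 0.370 to 0.755 against 0 to 0.299 CPM. The Myh6 groups overlapped, with Myh6-ctl replicate 3 the highest of all at 1.12 CPM.
Cfd (adipsin, a serine protease of the alternative complement pathway, chr10:79890853-79892655) had 14, 48 and 6 counts in EIIa-ctl hearts, 10, 84 and 85 in EIIa-tg, 68, 43 and 286 in Myh6-ctl hearts, and 0, 43 and 159 in Myh6-tg. It was the most abundant of the secreted markers per length, with 6.16 FPKM in Myh6-ctl replicate 3, and was listed at 0 in Myh6-tg replicate 1.
Retn (resistin, chr8:3655770-3660110) was listed at 0 in 9 hearts and had 9 counts in Myh6-ctl replicate 2, 46 in Myh6-ctl replicate 3 and 11 in Myh6-tg replicate 3. Lep (leptin, chr6:29060220-29073877) had 8 counts in EIIa-ctl replicate 3, 6 in EIIa-tg replicate 2 and was listed at 0 in the other 10 hearts. Neither gene gave a level that could be compared between the groups of a model.

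Ucp1, the heat-producing carrier that defines brown adipocytes (chr8:83290352-83298452), was listed at 0 in 10 of 12 hearts. It had 13 counts in Myh6-ctl replicate 2 (0.337 CPM) and 10 in Myh6-tg replicate 3 (0.189 CPM). Cidea was counted in all 12 hearts.

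Car3, the carbonic anhydrase III of adipocytes, skeletal muscle and liver (chr3:14863512-14872523), had 26, 108 and 28 counts in EIIa-ctl hearts, 51, 163 and 139 in EIIa-tg, 79, 72 and 556 in Myh6-ctl hearts, and 6, 10 and 59 in Myh6-tg. Its level was 1.39 ± 1.24 CPM in EIIa-ctl hearts, 2.53 ± 1.105 in EIIa-tg, 4.73 ± 5.04 in Myh6-ctl hearts, and 0.487 ± 0.547 in Myh6-tg. The 3 Myh6-tg hearts (0.128 to 1.12 CPM) lay below the 3 Myh6-ctl hearts (1.79 to 10.6 CPM), and the EIIa groups overlapped.

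**Figure D2:**
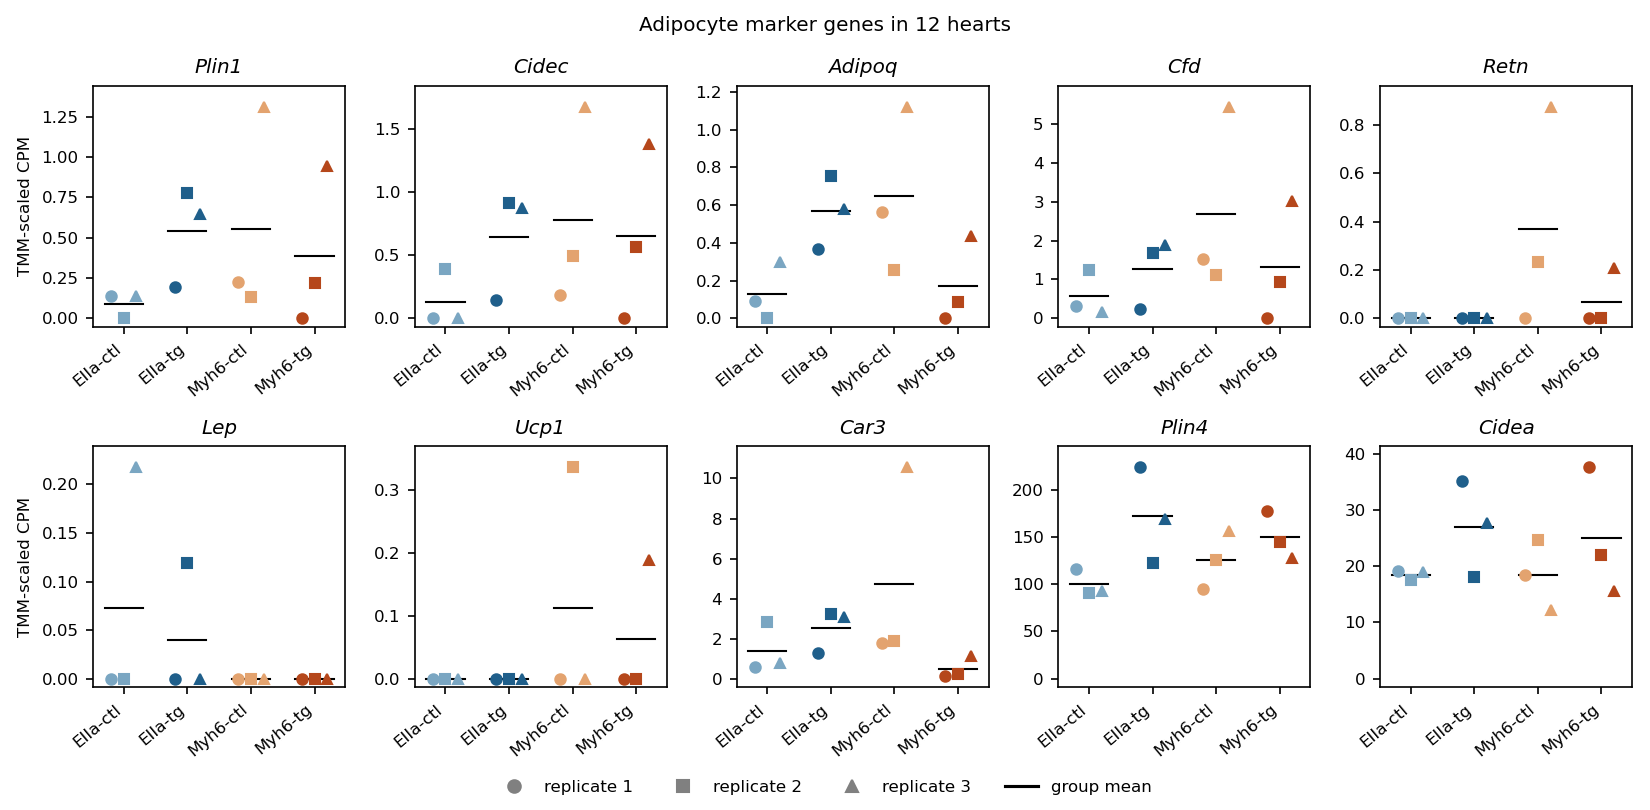
TMM-scaled CPM of the 10 markers in each heart, with 1 panel per gene, replicates by shape and a line at each group mean. Myh6-ctl replicate 3 is the highest heart for Plin1, Cidec, Adipoq, Cfd, Retn and Car3 (10.6 CPM), whereas Plin4 and Cidea are highest in replicate 1 of a transgenic group.

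The 10 markers together summed to 112 to 136 CPM in EIIa-ctl hearts (121 ± 13.3), 148 to 261 CPM in EIIa-tg (204 ± 56.3), 118 to 189 CPM in Myh6-ctl hearts (154 ± 35.7) and 150 to 215 CPM in Myh6-tg (178 ± 33.6), most of it Plin4. All EIIa-tg hearts were above all EIIa-ctl hearts in this sum, and the Myh6 groups overlapped, with the higher mean in Myh6-tg. Without Plin4 and Cidea, a choice made after seeing the values, the 8 remaining markers summed to 20.95 CPM in Myh6-ctl replicate 3, against 4.30 and 4.43 CPM in the other Myh6-ctl hearts. In Myh6-tg hearts the sum was 0.128, 2.02 and 7.29 CPM, with a mean of 3.14 ± 3.71 CPM against 9.89 ± 9.58 CPM for Myh6-ctl, the opposite order to that of all 10 markers. EIIa-tg replicates 2 and 3 had 7.47 and 7.08 CPM, above EIIa-tg replicate 1 at 2.22 CPM. EIIa-ctl hearts had 1.14 to 4.46 CPM. The heart numbered 1, which held the Y-linked counts, had the lowest of these sums within every group. The margin was small for Myh6-ctl (4.30 against 4.43 CPM), and with all 10 markers that heart was lowest in Myh6-ctl only. A link between Y-linked counts and this sum was not tested. Myh6-ctl replicate 3 ranked first of 12 for all of Adipoq, Cfd, Plin1, Cidec and Car3. In Myh6-tg replicate 1, 7 of the 10 members were listed at 0, and 6 Car3 counts were all that remained beside Plin4 and Cidea. That heart was nonetheless the highest for Cidea, at 37.5 CPM.

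**Figure D3:**
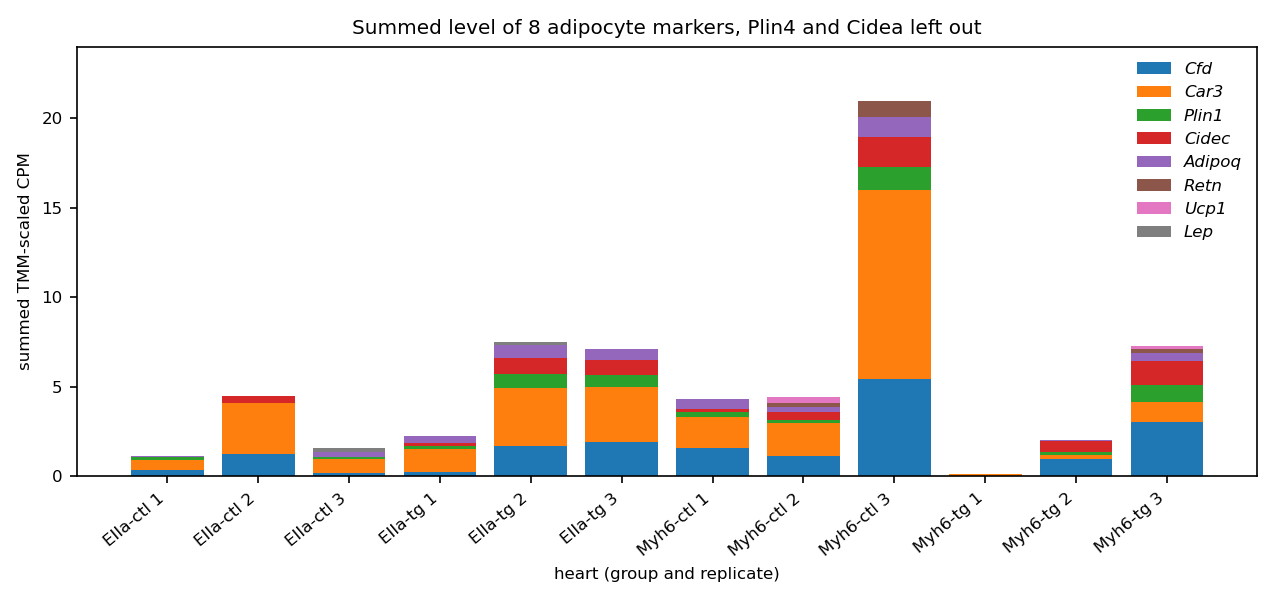
Summed TMM-scaled CPM of 8 markers in each heart, stacked by gene, with Plin4 and Cidea left out. The bar of Myh6-ctl replicate 3 reaches 20.95 CPM and that of Myh6-tg replicate 1 is 0.128 CPM.

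Markers of other tissues near the heart were set beside these sums. The 8 mesothelium markers, of the sheet that covers the heart and its fat, were at 34.5 CPM in Myh6-ctl replicate 3 against 11.9 and 16.8 CPM in the other Myh6-ctl hearts. They were at 50.4 CPM in Myh6-tg replicate 1, the heart lowest in the sum without Plin4 and Cidea, at 19.7 and 20.4 CPM in the other Myh6-tg hearts, and at 5.61 to 13.1 CPM in the 6 EIIa hearts. The list was split in the Myh6 comparison. By edgeR, Upk3b, Lrrn4 and Upk1b had log2 fold changes of -2.14, -1.25 and -0.48. Those of Krt18, Krt8, Msln, Krt19 and Wt1 were 2.56, 1.62, 0.90, 0.46 and 0.32. None of the 8 was called by edgeR, and DESeq2 called Krt18 as higher. The 10 thymus markers summed to 3.16 to 6.74 CPM, mostly from Cd4 and Cd1d1, and Foxn1 was listed at 0 in every group. The 7 lung markers summed to 0 to 2.43 CPM, with Sftpc and Sftpa1 listed at 0 in every group. Their sums were 0.955 to 2.43 CPM in Myh6-tg hearts against 0.0905 to 0.455 CPM in Myh6-ctl hearts. Ager, the only lung marker tested by edgeR there, had a log2 fold change of 3.33 (SE 1.36) and was not called. The 9 fast skeletal muscle markers summed to 2.06 to 8.70 CPM in 11 hearts and to 50.6 CPM in Myh6-tg replicate 1, the heart lowest in Car3, of which Tnnt3 alone gave 48.7 CPM. Myh1 and Myh4 were listed at 0 in Myh6-tg hearts, and Mylpf, Atp2a1 and Tnni2 had log2 fold changes of -0.67, -0.61 and -0.39 against Myh6-ctl. Actn3 had one of 0.90 (SE 1.77), and edgeR called none of these genes. Myh2 and Pvalb were not tested by edgeR and had DESeq2 log2 fold changes of 3.37 and -1.15. In each model DESeq2 called 1 gene of this list, Tnnt3, as higher. Its log2 fold change was 4.51 in Myh6-tg hearts (DESeq2 adjusted p = 0.000681), where 12.7% of all genes were called. In EIIa-tg hearts it was 4.06 (DESeq2 adjusted p = 5.34e-10), where 5.24% were called. The 6 atrium markers, of which Nppa and Myl4 had the highest levels, summed to 117 to 1817 CPM in the first 9 hearts and to 4188 to 6524 CPM in Myh6-tg hearts. Nppa is also a stress gene of the ventricle. DESeq2 called 1 gene of this list in Myh6-tg hearts, Myl4, as higher (log2 fold change 3.08, DESeq2 adjusted p = 9.18e-08). The log2 fold changes by DESeq2 were 4.67 for Myl7, 4.41 for Sln, 2.80 for Bmp10, 2.48 for Nppa and -0.04 for Fgf12. What these markers contribute to the adipocyte values was not tested.

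EIIa-tg hearts were compared with EIIa-ctl hearts by edgeR's quasi-likelihood test on all genes, and a call needed both a p below 0.01 after Benjamini-Hochberg adjustment and a change of 1 or more on the log2 scale, up or down. None of the 6 members tested was called, where 0% of the 14908 genes tested were called by this rule and 5204 had an unadjusted p under 0.05. DESeq2 called 5.24% of genes and none of its 7 members tested. Plin4 had a log2 fold change of 0.78 (SE 0.20, edgeR adjusted p = 0.0373), below the fold required, and the adjusted p ranged from 0.00127 to 0.192 over 19 alternative settings. Without EIIa-tg replicate 1, the highest heart, its log2 fold change was 0.55. Adipoq had a log2 fold change of 2.13 (SE 0.93, edgeR adjusted p = 0.142) and Cidec one of 2.30 (SE 1.28, edgeR adjusted p = 0.235), each resting on at most 46 counts per heart. The values were 1.14 (SE 0.88) for Cfd, 0.87 (SE 0.62) for Car3 and 0.54 (SE 0.21) for Cidea, with edgeR adjusted p of 0.392, 0.356 and 0.112. EIIa-tg replicates 2 and 3 carried the difference in Cfd, whose level in replicate 1 (0.247 CPM) was within the control range. With single hearts left out, Cidec ranged from 1.70 (without EIIa-ctl replicate 1) to 7.81 (without EIIa-ctl replicate 2), Adipoq from 1.55 (without EIIa-ctl replicate 2) to 3.50 (without EIIa-ctl replicate 3), Cfd from 0.70 (without EIIa-ctl replicate 3) to 2.37 (without EIIa-ctl replicate 2) and Car3 from 0.50 to 1.90. The value of 7.81 rests on controls all listed at 0 and so on the prior count. The filter on low counts ahead of edgeR removed Plin1, Retn, Ucp1 and Lep. DESeq2 gave Plin1 a log2 fold change of 2.56 (adjusted p = 0.0732), and its EIIa groups did not overlap. The median log2 fold change was 1.00 over the 6 members tested and 0.02 over all genes tested, and 2 of the 6, Adipoq and Plin4, did not overlap between groups, which held for 20.3% of all genes in the higher direction.

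Hearts labelled Myh6-tg were compared with Myh6-ctl in the same way. By edgeR none of the 7 members tested was called, where 3.97% of the 15298 genes tested were called and 5210 had an unadjusted p under 0.05. Car3 had the largest difference of the members, a log2 fold change of -3.26 (SE 1.03, edgeR adjusted p = 0.0635), lower in 3 of 3 hearts. Hearts with the same replicate number deviated together in this comparison, and with the replicate number as a block Car3 was called (log2 fold change -3.34, edgeR adjusted p = 0.00446), as were 6.33% of all genes. DESeq2 also called Car3 (-3.29, adjusted p = 0.00102) and 12.7% of all genes. Over 19 alternatives the adjusted p ran from 0.00102 to 0.237, and the highest came without Myh6-ctl replicate 3, when the log2 fold change was -1.90. Car3 was the 1 member of 7 without overlap in the lower direction, which held for 19.6% of all genes. Adipoq had a log2 fold change of -1.87 (SE 1.20, edgeR adjusted p = 0.314) and Cfd one of -1.03 (SE 1.27, edgeR adjusted p = 0.614). Without Myh6-ctl replicate 3 the value of Cfd was -0.01. Plin1 (-0.52, SE 1.37) and Cidec (-0.27, SE 1.32) had no settled direction. Without Myh6-ctl replicate 3 they came to 1.11 and 0.95, without Myh6-tg replicate 1 to 0.05 and 0.31, and scaled to the total count the mean of Cidec was higher in Myh6-tg than in Myh6-ctl (0.826 against 0.764 CPM). Cidea (0.44, SE 0.37) and Plin4 (0.26, SE 0.23) were also not called, with edgeR adjusted p of 0.443 and 0.487. The median log2 fold change was -0.52 over the 7 members tested and 0.03 over all genes tested.

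**Figure D4:**
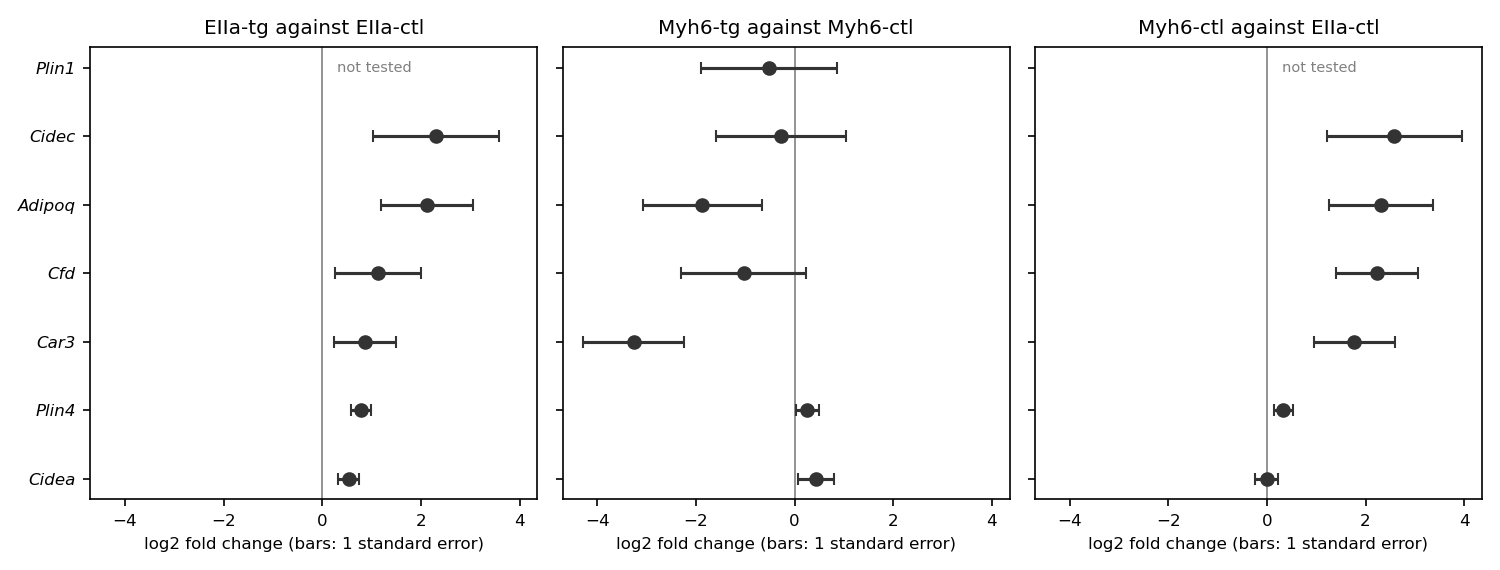
Log2 fold change of the 7 members tested, with bars of 1 standard error, in 3 comparisons by edgeR. The bars of all 6 members drawn for the EIIa comparison and those of Car3 (-3.26), Adipoq, Plin4 and Cidea in the Myh6 comparison stay clear of 0, those of Plin1, Cidec and Cfd there cross it, and none of these members was called.

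The proportions of the markers also differed in Myh6-tg replicates 2 and 3, a pattern chosen after its values were seen and given without a test. Car3 made up 41.6% to 63.2% of the summed counts of Car3, Adipoq, Cfd, Plin1 and Cidec in the first 9 hearts. It made up 10.8% of 93 counts in Myh6-tg replicate 2 and 16.2% of 364 counts in Myh6-tg replicate 3. Exact binomial 95% intervals on halved counts, in case both reads of a pair were counted, were 3.55% to 23.1% and 11.4% to 22.7%, and they cover counting error only. The lowest of the other 9 hearts, Myh6-ctl replicate 1, had an interval of 31.7% to 52.2%. Because Car3 was picked from these same values, the intervals cannot serve as a test between hearts or groups. In Myh6-tg replicate 1 only 6 counts were available, all of Car3.

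**Figure D5:**
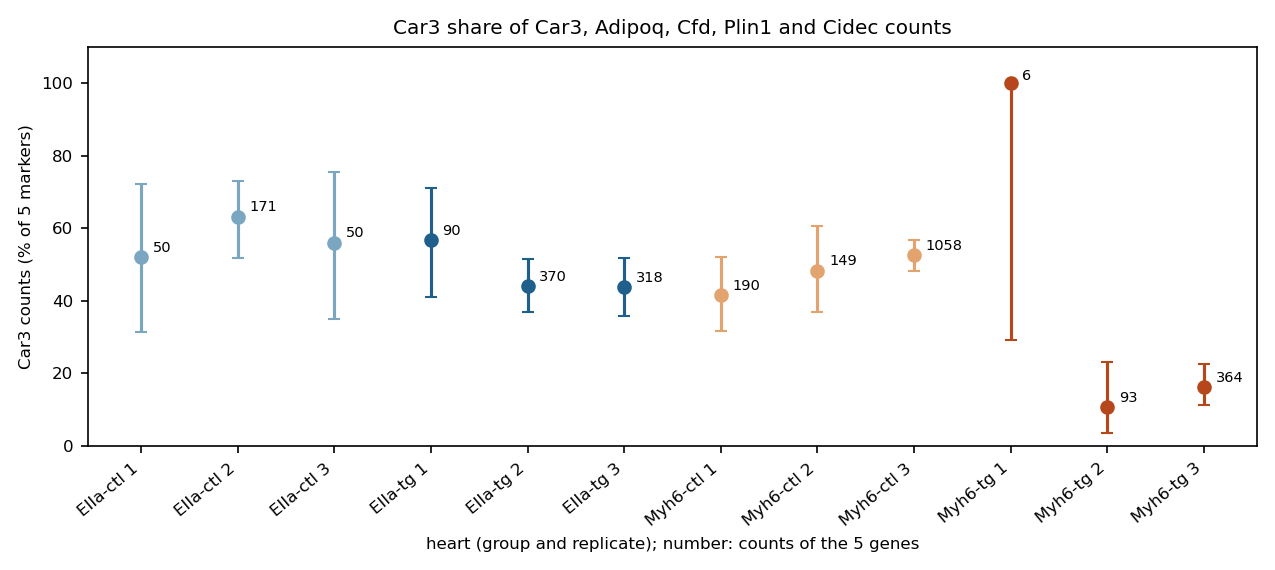
Percent of the counts of 5 markers that were Car3 in each heart, with exact binomial 95% intervals on halved counts and the number of counts beside each point. Myh6-tg replicates 2 and 3 lie at 10.8% and 16.2%, the 9 hearts of the other groups at 41.6% to 63.2%, and Myh6-tg replicate 1 holds 6 counts.

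The fold changes of the 2 models were compared in one fit of all 12 hearts. None of the 7 members tested was called in the difference between models (0.622% of 15929 genes called, 3092 with an unadjusted p under 0.05). DESeq2 called none of its 7 members either, and 3.89% of genes. Car3 had the largest difference, -4.13 (SE 1.31, edgeR adjusted p = 0.105), Myh6 less EIIa on the log2 scale, which fell between 0.0104 and 0.237 in adjusted p over 24 alternatives. Adipoq differed by -3.99 (SE 1.74, edgeR adjusted p = 0.231), Plin1 by -3.05 (SE 1.92), Cidec by -2.57 (SE 2.14) and Cfd by -2.17 (SE 1.73), with edgeR adjusted p of 0.231 to 0.554 for these. Plin4 and Cidea differed by -0.53 (SE 0.33) and -0.10 (SE 0.47). With single hearts left out, Cidec ranged from -8.15 (without EIIa-ctl replicate 2) to -1.36 (without Myh6-ctl replicate 3).

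The control groups differ in age, treatment and Cre line together, so the effects of these cannot be told apart. Between these groups none of the 6 members tested was called by edgeR, and 0.0334% of 14990 genes were. DESeq2 called none of its 8 members tested, and 1.11% of genes, and 1700 genes had an unadjusted p under 0.05 by edgeR. Myh6-ctl hearts had log2 fold changes over EIIa-ctl of 2.58 (SE 1.37) for Cidec, 2.32 (SE 1.05) for Adipoq, 2.22 (SE 0.83) for Cfd and 1.77 (SE 0.82) for Car3, with edgeR adjusted p of 0.368 to 0.531. Without Myh6-ctl replicate 3 that of Car3 was 0.39 and that of Cidec 1.35, and without EIIa-ctl replicate 2 that of Cidec was 8.09. Plin4 had a value of 0.33 (SE 0.19) and Cidea of -0.00208 (SE 0.24). The controls of each model also enter its transgenic comparison, so these values and those above are not separate evidence.

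Across the 12 hearts, the likeness of each gene to Adipoq was described by Pearson's r of log2 CPM. Members were set against 13101 genes with a mean of at least 1 CPM, a minimum that the members themselves did not have to meet. Plin1, which lies below it, had an r of 0.894. Only Plekhf1, a regulator of lysosomes, was higher among the 13101 genes (r = 0.916), and other genes as low as Plin1 were not compared. Klhl34, Ciita, the switch of MHC class II genes, Tmem108, Acin1, Crebzf, Kdm4c, Ccl12, Pik3cg and Zfp324 completed the 10 genes most alike other than members, with r of 0.817 to 0.850. Among the other members r was 0.652 for Car3, 0.614 for Cfd, 0.519 for Cidec, 0.431 for Retn, 0.241 for Lep, 0.119 for Plin4 and -0.38 for Cidea. Plin4 and Cidea had an r of 0.587 with each other, and Cidea had one of -0.714 with Cfd. The genes most like Ucp1, led by Gm43064 (r = 0.863), rest on the 2 hearts in which Ucp1 was counted. The hearts share groups, depth and the low counts of these genes, and r is a description without a test.

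Other genes of fat were counted from written lists. Their calls are by edgeR unless DESeq2 is named, against the shares of all genes given above for each tool (0% by edgeR and 5.24% by DESeq2 in the EIIa comparison, 3.97% and 12.7% in the Myh6 comparison). Among 31 further adipocyte genes, 25 were tested in each model. None was called by edgeR in EIIa-tg hearts, where the most abundant, Lpl (lipoprotein lipase) and Fabp4 (a fatty acid carrier that capillaries of the heart also make), had log2 fold changes of -0.49 (SE 0.21) and 0.36 (SE 0.21). In Myh6-tg hearts 1 fell, Dgat2, an enzyme of triglyceride synthesis, from 253 ± 21.7 to 34.7 ± 6.39 CPM (log2 fold change -2.86, SE 0.21, edgeR adjusted p = 0.00102). DESeq2 called 3 of 26 in EIIa-tg hearts, Adrb3 (the adrenergic receptor of fat) as higher and Dgat2 and Mest as lower, and 5 of 26 in Myh6-tg hearts, Agpat2, Aqp7, Dgat2, Sncg and Thrsp, all lower. Adrb3 was listed at 0 in EIIa-ctl hearts and averaged 0.622 ± 0.226 CPM in EIIa-tg (DESeq2 adjusted p = 6.39e-05), 0.332 ± 0.308 in Myh6-ctl hearts, and 2.33 ± 1.70 in Myh6-tg. Trarg1, a regulator of glucose transporter traffic, averaged 3.06 to 5.95 CPM over the groups, and both were named after their values were seen. Lpl and Fabp4 are made by heart tissue itself. Adig averaged 0.105 to 0.586 CPM, Lgals12 0.0189 to 0.0569 CPM and Slc7a10 0 to 0.107 CPM over the 4 groups.

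Of 19 further genes of brown and beige fat, none of 12 tested was called by edgeR in EIIa-tg hearts, where Fabp3 and Cpt1b, the most abundant, had log2 fold changes of 0.02 (SE 0.18) and 0.13 (SE 0.13). In Myh6-tg hearts edgeR called 3 of 14, all lower. Ppargc1a, the coactivator of mitochondrial biogenesis, fell from 102 ± 38.9 to 19.5 ± 6.17 CPM (log2 fold change -2.39, edgeR adjusted p = 0.00588). Cox8b, a cytochrome oxidase subunit of heart, muscle and brown fat, fell from 37.4 ± 15.0 to 7.72 ± 1.12 CPM (log2 fold change -2.27, edgeR adjusted p = 0.00496). Cpt1b, which carries fatty acids into mitochondria, fell by 1.15 on the log2 scale (edgeR adjusted p = 0.00887). All 3 are also genes of heart muscle. DESeq2 called 1 of 15 in EIIa-tg hearts, Slc36a2, as lower. In Myh6-tg hearts it called 7 of 17, with Fabp3, Slc27a2 and Slc36a2 lower beside the 3 above and Dio2, which activates thyroid hormone, higher (log2 fold change 3.26, DESeq2 adjusted p = 0.00640). Elovl3 and Zic1, which are largely absent from heart muscle, averaged at most 0.0520 and 0.164 CPM in any group.

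Of the 13 lipid droplet genes, all tested, neither edgeR nor DESeq2 called any in EIIa-tg hearts, where Pnpla2 (the lipase ATGL) and Mgll (monoglyceride lipase) were the most abundant and had log2 fold changes of 0.61 (SE 0.17) and -0.39 (SE 0.15). In Myh6-tg hearts edgeR called 3, all lower, and DESeq2 these and Cideb, also lower. Fitm1, which helps droplets form in muscle, fell from 68.9 ± 19.3 to 7.42 ± 1.23 CPM (log2 fold change -3.21, edgeR adjusted p = 0.00134). Plin5, the perilipin of oxidative muscle, fell from 72.1 ± 19.6 to 15.8 ± 6.86 CPM (log2 fold change -2.18, edgeR adjusted p = 0.00960). G0s2, an inhibitor of ATGL, fell from 33.8 ± 11.5 to 9.27 ± 2.19 CPM (log2 fold change -1.86, edgeR adjusted p = 0.00839). The 9 cardiomyocyte markers summed to 9886 to 33305 CPM in Myh6-tg and 34084 to 45879 CPM in Myh6-ctl hearts, and their part in these falls was not tested. Plin5 was called in Myh6-tg hearts and its relative Plin4 was not, and they were not tested against each other. In the difference between models 1 droplet gene, Fitm1 (-2.40, edgeR adjusted p = 0.00739), and 1 brown fat gene, Cpt1b (-1.28, edgeR adjusted p = 0.00947), were called by edgeR, both lower in the Myh6 model. DESeq2 called 3 further adipocyte, 3 brown fat, 2 droplet and 4 adipokine or receptor genes in that difference, all lower.

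Of the 15 adipokine and receptor genes, all tested, edgeR called none in EIIa-tg hearts, where Nampt and Adipor1, an adiponectin receptor, had log2 fold changes of 0.30 (SE 0.18) and -0.21 (SE 0.10). DESeq2 called 7 of 15 there, Angptl4, C3, Cfb, Rbp4 and Sfrp5 higher and Apln and Aplnr lower, among them C3, the central complement protein (log2 fold change 2.30, DESeq2 adjusted p = 2.34e-18). In Myh6-tg hearts edgeR called 2, both lower, Nampt, an enzyme of NAD synthesis (log2 fold change -1.37, edgeR adjusted p = 0.00808), and Aplnr, the apelin receptor of endothelium (log2 fold change -3.53, edgeR adjusted p = 0.00980), and DESeq2 called 4, these with Apln and Lepr, all lower. Of the 11 adipocyte progenitor genes edgeR called none in either model. DESeq2 called 3 of 10 in EIIa-tg hearts, Cebpd and Pi16 higher and Bmp7 lower, and 2 of 10 in Myh6-tg hearts, Cebpd and Pdgfra, both higher. Cd34 and Ly6a, the most abundant in the EIIa hearts, had log2 fold changes of -0.15 (SE 0.17) and 0.42 (SE 0.13), and Cd34 and Pi16 had -0.37 (SE 0.25) and 1.06 (SE 0.51) in the Myh6 hearts. Between the control groups edgeR called no gene of these 5 lists, and DESeq2 called C3 as higher and Mest and Apln as lower in Myh6-ctl hearts.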

How the data were processed

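Heart RNA of 12 mice was analysed. According to the paper and the submitters' processing notes, libraries were made with a NEBNext Ultra kit, sequenced as paired-end reads and mapped by the authors with HISAT2 2.0.4. The paper names GRCm38, and the notes list both GRCm39 and mm10, with StringTie 2.2.1. The deposited counts are whole numbers per gene without normalization, the deposited FPKM values are fragments scaled by the authors to transcript length and depth, and the program and strand setting of the counting are not given in the sources used here. No batch is named. All 10 members were found by symbol and have an identifier in GENCODE M21 (GRCm38), which gave positions.

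Hearts were grouped by title and treatment, and replicates are separate mice per the labels. All tests were run on the whole table in R 4.3.3 with edgeR 4.0.16 (filterByExpr, TMM, glmQLFit, glmQLFTest) in the 6 hearts compared, or all 12 for the difference between models. The edgeR and DESeq2 fits of the pairwise comparisons were tried on simulated data, for genes of higher count only. The difference between models, the other alternatives and genes as low as Adipoq, Plin1, Cidec, Retn, Lep and Ucp1 were not simulated. SE is the log2 fold change divided by the square root of F. Depth was 38343106 to 50969834 counts per heart. Same-numbered hearts correlated in their deviations from the group means at 0.285, 0.184 and 0.174 in the Myh6 comparison, and at -0.07 to 0.06 in the EIIa comparison, so the block is given beside the Myh6 result only. Alternatives were DESeq2 1.42.0, RLE factors, no low-count filter, a minimum of 1 CPM in 3 or more hearts, all 12 hearts in one fit, the replicate block, a Y-linked covariate, leaving out replicate 1 of every group, libraries without the 13 mt- genes, a threshold of 0.05 on the adjusted p, limma 3.58.1 on log2(FPKM + 1) and log2(FPKM + 0.1) for genes with 0.5 FPKM in 3 or more hearts, log2(FPKM + 1) without a filter, and leaving out each heart. Sums without Plin4 and Cidea or scaled to the total count were added after seeing the data. For likeness, log2 CPM had a prior count of 2 and genes a mean of at least 1 CPM, except that members were kept whatever their mean. Promoters are from RefSeq. Figures used matplotlib 3.10.9 in Python 3.11.15.

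The members and gene lists were chosen with earlier results of these data known. All 10 members are named with their values. Of each other list the 3 called genes with the largest change are named, or, with none called, the 2 with the highest mean CPM, and the genes near the floor and the genes most like Adipoq beyond the first were named after their values were seen.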

Additional observations from a re-analysis of the deposited data

How the results depend on the processing

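The count of members called was 0 by edgeR in all 4 comparisons and under every alternative run, except that in the Myh6 comparison DESeq2 and the replicate block each called 1, Car3 (log2 fold change -3.29 and -3.34). The block changed no other call of a member. Deviations of same-numbered hearts correlated at only -0.07 to 0.06 in the EIIa comparison and -0.03 to 0.12 in the control comparison. Replicate 1 held the Y-linked counts in every group, so the block also takes up that difference. With each heart left out in turn, 0 members were called in any comparison. With all hearts kept, edgeR called 0% of genes in the EIIa, 3.97% in the Myh6 and 0.0334% in the control comparison. In the difference between models it called 0.622%. A count of 0 among so few members is close to those shares, so it does not show stability. Values that changed sign were all below the call. In the Myh6 comparison, with single hearts left out, Plin1 ranged from -2.34 to 1.11 and Cidec from -1.46 to 0.95 on the log2 scale. Cidec came to 0.022 with limma on log2(FPKM + 1) without a filter, and Plin4 to -0.054 without replicate 1 of every group. Between the controls, Cidea came to 0.00369 with DESeq2, 0.00389 with RLE factors, 0.00638 with a minimum of 1 CPM in 3 or more hearts, 0.021 without replicate 1 of every group, and -0.26 to 0.22 with single hearts left out. In the difference between models Cidea came to 0.11 with limma on log2(FPKM + 1), filtered or not, 0.12 with log2(FPKM + 0.1), and -0.52 to 0.16 with single hearts left out. The cause was not tested. Log2 fold changes from limma on FPKM carry the pseudocount and understate low genes. Several members rest on fewer than 100 counts per heart, so changes in them may not have been detectable at this depth.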
